A study of Mus musculus with 6 samples.

Results

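The mitochondrial ribosomal proteins were examined in inguinal white adipose tissue of Naa10-KO and WT mice. They were taken as every gene whose annotated symbol begins with Mrpl or Mrps followed by a digit, and 76 of the 18193 genes measured met this, 47 with an Mrpl symbol (large subunit) and 29 with an Mrps symbol (small subunit). Where a gene had several probe sets annotated to it alone, the one of highest average signal on the 6 arrays stood for it. Mrpl30 and Mrpl53 were named only on probe sets shared with other genes and were not analysed here.

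The tested animals were 3 male Naa10-KO mice and the controls 3 male WT mice, each hybridised to 1 Affymetrix Mouse Genome 430 2.0 array. Both genotypes had eaten a high-fat diet, 60% of its calories being fat, for 15 weeks from the age of 6 weeks, and had then spent 4 h at 4 °C. The labels give the genotype only, without the allele, the strain or the cells in which the gene was deleted. Naa10 encodes an enzyme that acetylates the start of newly made proteins, and its own transcript was not analysed here, so the genotype labels were not checked against it. Each p-value sets the difference between genotypes against the spread between mice within a genotype, an estimate that draws on all genes measured. The number of arrays limits the precision of these p-values.

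Mitochondrial ribosomes translate the few proteins encoded in mitochondrial DNA, all of them core subunits of the respiratory chain and ATP synthase. Their RNA is transcribed in the mitochondrion, whereas their proteins are encoded in the nucleus, made in the cytosol and imported. The small subunit reads the messenger RNA and the large subunit joins the amino acids, and brown and beige fat, being rich in mitochondria, depends on this machinery to build the respiratory chain that feeds thermogenesis.

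The sequences of 4 promoters are given because their genes stand at the ends of the comparison or carry one of the motifs counted later. Mrpl47 and Mrpl3 had the highest mean differences, Mrps11 the lowest, and Mrpl12 was lower on every Naa10-KO array and has an NRF1 match. Each line holds the 250 bases before the annotated start in RefSeq's GRCm38.p6, read 5′ to 3′ on the gene's strand. The windows lie at chr3:32736756-32737005 on the minus strand (Mrpl47), and on the plus strand at chr9:105053018-105053267 (Mrpl3), chr11:120484387-120484636 (Mrpl12) and chr7:78782881-78783130 (Mrps11). Capitals mark a GABPA motif in Mrpl3, an NRF1 motif in Mrpl12 and a YY1 motif, on the opposite strand, in Mrps11, while the Mrpl47 window held none of these letters. The YY1 match lies 107 to 100 bases before the Mrps11 start. Mrpl46 starts 42 bases from Mrps11 on the opposite strand, so this match lies inside Mrpl46.
Mrpl47: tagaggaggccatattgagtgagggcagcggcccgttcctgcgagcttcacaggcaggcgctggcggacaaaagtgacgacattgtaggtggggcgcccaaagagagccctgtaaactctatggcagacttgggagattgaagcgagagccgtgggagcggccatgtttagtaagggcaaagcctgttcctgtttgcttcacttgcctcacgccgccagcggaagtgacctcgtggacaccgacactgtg
Mrpl3: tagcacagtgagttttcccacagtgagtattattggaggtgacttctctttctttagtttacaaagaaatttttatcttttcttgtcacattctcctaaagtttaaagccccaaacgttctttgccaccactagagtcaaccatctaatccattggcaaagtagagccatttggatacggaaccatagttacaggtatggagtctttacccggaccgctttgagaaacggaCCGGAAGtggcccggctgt
Mrpl12: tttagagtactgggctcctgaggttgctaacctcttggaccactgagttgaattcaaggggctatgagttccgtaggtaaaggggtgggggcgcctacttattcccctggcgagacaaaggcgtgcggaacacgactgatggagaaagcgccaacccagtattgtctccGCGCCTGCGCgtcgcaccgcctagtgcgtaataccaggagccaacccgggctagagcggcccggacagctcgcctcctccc
Mrps11: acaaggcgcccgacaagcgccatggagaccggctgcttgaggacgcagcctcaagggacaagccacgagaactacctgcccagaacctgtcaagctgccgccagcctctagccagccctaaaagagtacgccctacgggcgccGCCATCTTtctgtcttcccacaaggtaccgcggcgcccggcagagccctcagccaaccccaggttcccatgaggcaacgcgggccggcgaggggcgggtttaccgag

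All 10 white adipocyte markers measured had signals above the median, with 0 called between genotypes. Of these, 4 had a higher and 6 a lower mean in Naa10-KO fat, with differences from -0.41 to 0.19. Below WT without overlap lay 1 marker (10.0%), where 8.14% of all genes did. Adipoq, the adiponectin gene, had a mean log2 signal of 15.71 ± 0.13 in Naa10-KO fat and 15.61 ± 0.16 in WT fat (SD, n = 3 each). Skeletal muscle transcripts were also present and differed by genotype. All 20 muscle markers had a higher mean in Naa10-KO fat, 18 without overlap, and their summed linear signal was 127820 to 167018 on Naa10-KO arrays and 8557 to 23514 on WT arrays. Pvalb, the parvalbumin gene of fast muscle, differed by 3.92 and was the 1 marker called (adjusted p 0.0409 in limma's fit), and Myl1 and Pygm differed by 3.08 and 3.70. Of 11 brown and beige adipocyte markers, 9 had a higher mean in Naa10-KO fat, 5 without overlap, with summed signals of 14551 to 20503 on Naa10-KO arrays and 4863 to 7935 on WT arrays. Ucp1, the uncoupling protein of thermogenic fat, differed by 6.17, Cox7a1 by 2.00 and Pank1 by 1.81. The other direction was seen for 2 markers of this list, the lowest difference being -0.97. In this list 0 were called and 5 of 11 had an unadjusted p under 0.05. Over all genes, 10.0% lay above WT without overlap and 9.20% had an unadjusted p under 0.05. Of 8 skin markers, 6 were below the median of all values on every array, and 2 had a higher mean in Naa10-KO fat, as did 2 of 10 B and T cell, 5 of 10 macrophage, 5 of 8 endothelial and 4 of 7 progenitor markers. Among the WT arrays, replicate 3 carried the highest muscle signal. The part of these cell types in the values below was not tested. In whole tissue, fewer cells of a type and less RNA per cell cannot be told apart.

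All 76 mitoribosomal genes gave clear signals in this fat, and none differed between Naa10-KO and WT fat at an adjusted p under 0.05. Every one lay above the median of all values (5.86 on the log2 scale) on every array, with single values between 7.82 and 14.05. In limma's fit over all 18193 genes with Benjamini-Hochberg adjustment, 0 members passed, where 0.0879% of all genes passed as higher and 0.0275% as lower in Naa10-KO fat. Among the genes with a mean at or over the median signal, as all members have, the shares were 0.106% and 0.0088%. The lowest adjusted p among the members was 0.503, and over 16 other fits with limma the lowest was 0.166. At an unadjusted p under 0.05 the count was 2 higher (Mrpl47 and Mrpl3) and 1 lower (Mrpl13), where 4.85% of all genes were higher and 4.35% lower, and 5.25% and 4.31% of genes at or over the median signal.

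The differences were small. The median over the members was 0.05 on the log2 scale (Naa10-KO minus WT), with quartiles of -0.08 and 0.21, against a median of 0.01 over all genes. The members ran between -0.36 and 0.55, so all 76 fold differences were within 1.5-fold, whereas 13.4% of all genes differed by more than 1 log2 unit and 2.48% of those with a mean at or over the median signal did. The 95% interval of the difference lay within 1 log2 unit of 0 for 73 of the 76, and the other 3 were Mrpl3, Mrpl33 and Mrpl37. The plot of each gene's interval shows most of them spanning 0.

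**Figure D1:**
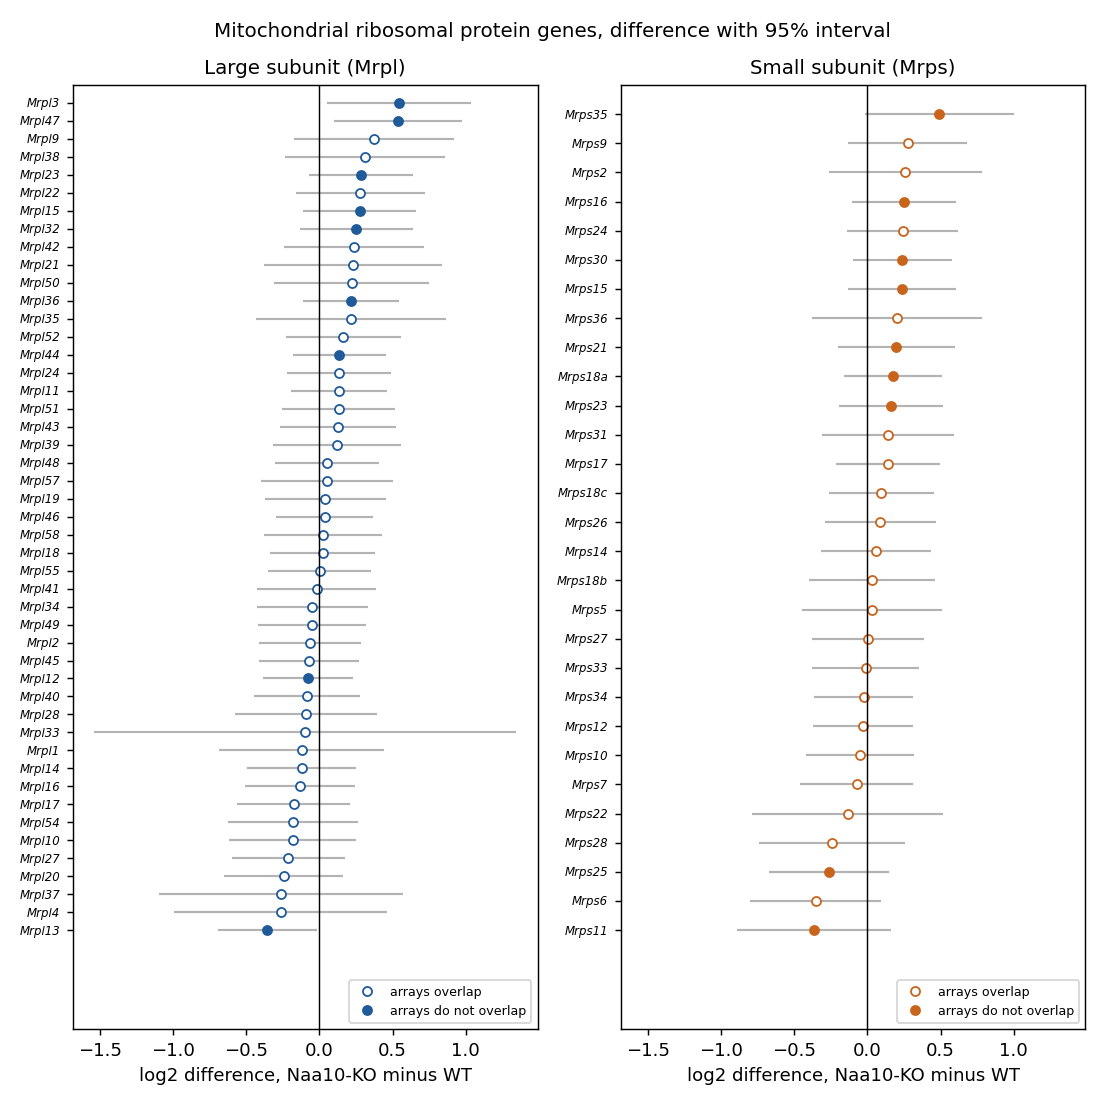
Points give the log2 difference (Naa10-KO minus WT, n = 3 each) of each of the 76 mitochondrial ribosomal protein genes and lines the 95% interval of limma's fit, with the large subunit on the left and the small subunit on the right. Filled points mark the 18 genes whose 3 Naa10-KO and 3 WT arrays did not overlap, and the values run from -0.36 (Mrps11) to 0.55 (Mrpl3).

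More members had a higher than a lower mean in Naa10-KO fat, 46 against 30, a share of 60.5%, where 51.4% of all genes and 53.2% of genes at or over the median signal had a higher mean. The 3 Naa10-KO arrays lay above the 3 WT arrays for 14 members (18.4%), where the background was 10.0% of all genes and 13.0% of genes at or over the median signal. These were Mrpl3, Mrpl15, Mrpl23, Mrpl32, Mrpl36, Mrpl44, Mrpl47, Mrps15, Mrps16, Mrps18a, Mrps21, Mrps23, Mrps30 and Mrps35. The Naa10-KO arrays lay below for 4 members (5.26%), Mrpl12, Mrpl13, Mrps11 and Mrps25, where the background was 8.14% and 9.76%. The higher count depended on the scaling, since centring each array on its median left 5 members higher and 6 lower without overlap, where 7.27% and 8.25% of all genes were. With 1 array left out, groups of 3 and 2 separate more easily for every gene. Leaving out WT replicate 1 gave 25 members higher, where 14.4% of all genes were higher in that fit. Leaving out WT replicate 3 gave 15 lower, where 14.6% of all genes were. Leaving out Naa10-KO replicate 1 gave 7 lower (11.3% of all genes) and leaving out Naa10-KO replicate 3 gave 8 (14.6% of all genes).

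In the large subunit, the highest differences belonged to Mrpl3 and Mrpl47. Mrpl3, a relative of bacterial L3 near the site of peptide bond formation, had log2 signals of 11.06, 10.83 and 10.71 in Naa10-KO fat and 10.12, 10.23 and 10.61 in WT fat. WT replicate 3 was nearest to the Naa10-KO arrays, and the groups did not overlap. The mean difference was 0.55 (SE 0.20), with an adjusted p of 0.525 in limma's fit. Mrpl47, a relative of bacterial L29 at the exit of the tunnel, had 10.94, 10.77 and 10.49 in Naa10-KO fat and 10.29, 10.23 and 10.08 in WT fat. Every Naa10-KO array was above every WT array, and the difference was 0.54 (SE 0.17, adjusted p 0.503 in limma's fit). Mrpl23, also at the tunnel exit, had 11.94, 11.71 and 11.71 in Naa10-KO fat and 11.55, 11.46 and 11.49 in WT fat, a difference of 0.28 (SE 0.14) without overlap. Mrpl22 and Mrpl24, their neighbours at the exit, had differences of 0.28 and 0.14, and Mrpl45, which anchors the ribosome at the inner membrane, had -0.07, all 3 with overlapping arrays.

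Mrpl13 was the large subunit gene with the lowest difference. It had log2 signals of 12.42, 12.30 and 12.36 in Naa10-KO fat and 12.81, 12.72 and 12.61 in WT fat. All Naa10-KO arrays were below all WT arrays, and the difference was -0.36 (SE 0.13, adjusted p 0.536 in limma's fit). In the stalk, which recruits the GTPase factors of translation, Mrpl12 had 11.38, 11.33 and 11.36 in Naa10-KO fat and 11.44, 11.41 and 11.46 in WT fat, a difference of -0.08 (SE 0.12). These groups lay close together without overlap. Mrpl11 was slightly higher in mean (0.14) and Mrpl10 slightly lower (-0.18), both with overlap. Mrpl15 had 11.89, 11.61 and 11.70 in Naa10-KO fat and 11.57, 11.33 and 11.48 in WT fat, a difference of 0.28 (SE 0.15) without overlap. Mrpl4, which lines the exit tunnel, had 8.89, 9.47 and 9.94 in Naa10-KO fat and 9.75, 9.66 and 9.68 in WT fat, with Naa10-KO replicate 1 lowest and replicate 3 highest of the 6. Its difference was -0.27 (SE 0.29), and without Naa10-KO replicate 1 it was 0.0072. Mrpl9 (0.37) and Mrpl38 (0.31) had the next highest differences after Mrpl47, and in both the groups overlapped. Mrpl51 and Mrpl41 had differences of 0.13 and -0.02.

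In the small subunit, Mrps35, a protein without a bacterial counterpart, had the highest difference. Its log2 signals were 11.32, 10.77 and 11.10 in Naa10-KO fat and 10.50, 10.45 and 10.76 in WT fat. The lowest Naa10-KO array and WT replicate 3 nearly met, but the groups did not overlap, and the difference was 0.49 (SE 0.20, adjusted p 0.547 in limma's fit). Mrps16 had 11.64, 11.58 and 11.43 in Naa10-KO fat and 11.41, 11.22 and 11.28 in WT fat, a difference of 0.25 (SE 0.14) without overlap. Mrps9, a protein of the head of the subunit, had a difference of 0.27 with overlapping groups. At the decoding centre, Mrps12 had a difference of -0.03, and Mrps24, a relative of bacterial S3 where the messenger enters, had 0.24, both with overlap.

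The lower end of the small subunit was held by 2 proteins of its platform. Mrps11 had log2 signals of 8.41, 8.82 and 8.88 in Naa10-KO fat and 9.00, 9.32 and 8.88 in WT fat. Naa10-KO replicate 3 and WT replicate 3 met to within the second decimal, so the groups only just failed to overlap, and the difference was -0.36 (SE 0.21, adjusted p 0.63 in limma's fit). Mrps6 had 13.39, 13.54 and 13.80 in Naa10-KO fat and 13.98, 13.76 and 14.05 in WT fat. Naa10-KO replicate 3 was above WT replicate 2, and the difference was -0.35 (SE 0.18). Mrps25 had a difference of -0.26 without overlap. Mrps27, a pentatricopeptide repeat protein, and Mrps5 differed by 0.01 and 0.03, and Mrps14 by 0.06.

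Some Mrps names do not describe where the protein lies. Mrps30 and Mrps18a are found in the large subunit in ribosome structures, and Mrps36 is a subunit of the 2-oxoglutarate dehydrogenase complex. Mrps30 had log2 signals of 10.99, 11.09 and 10.86 in Naa10-KO fat and 10.72, 10.77 and 10.75 in WT fat, a difference of 0.24 (SE 0.13) without overlap. The 3 related genes Mrps18a, Mrps18b and Mrps18c differed by 0.17, 0.03 and 0.10, and only Mrps18a had groups that did not overlap. Mrps36 differed by 0.20 with overlap.

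**Figure D2:**
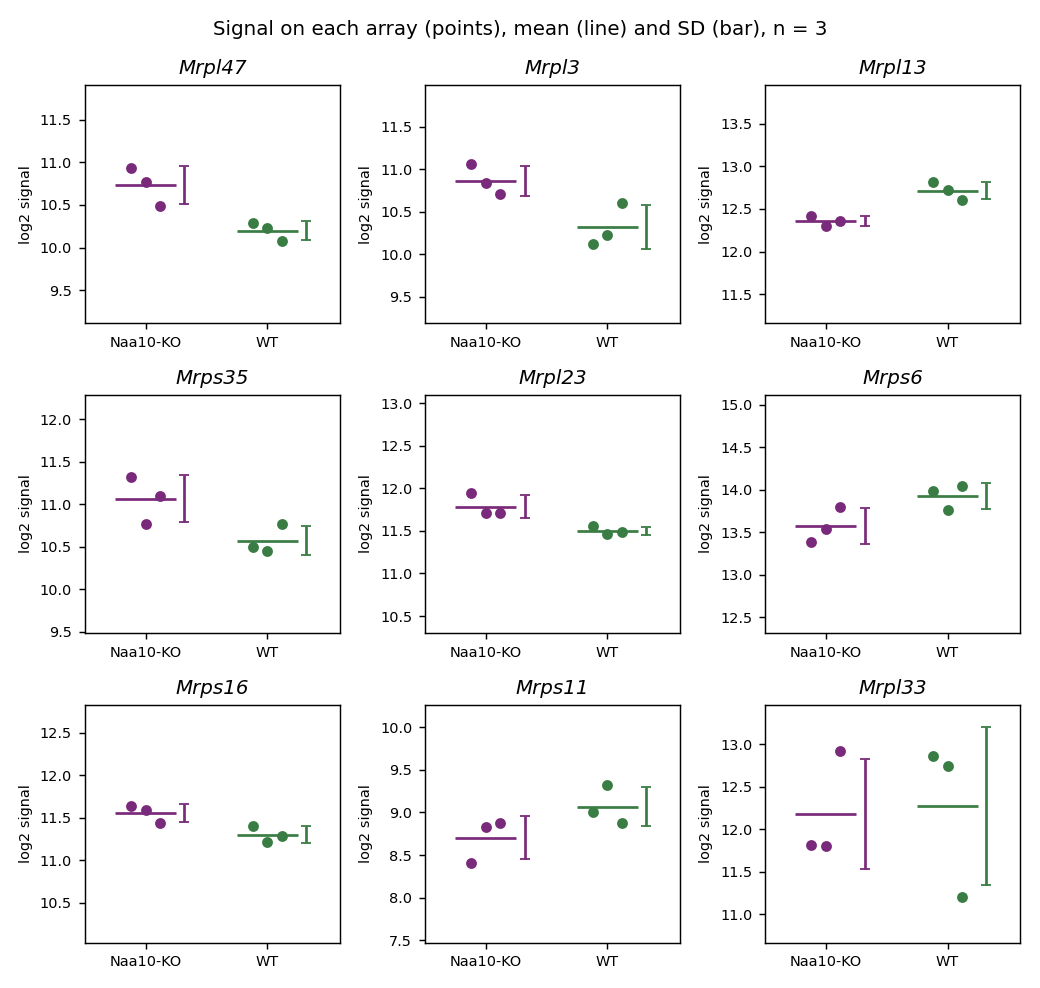
Log2 signal on each array for 9 genes, with points for the 3 Naa10-KO mice on the left of each panel and the 3 WT mice on the right, a line at the mean and a bar of 1 SD to each side, all panels spanning the same range of log2 units. Mrpl47, Mrpl3, Mrps35, Mrpl23 and Mrps16 lie higher in Naa10-KO fat and Mrpl13 and Mrps11 lower, all without overlap, while Mrps6 overlaps and Mrpl33 spreads over more than 1 unit in both groups.

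The large and small subunits gave similar values. The large subunit had 27 genes with a higher and 20 with a lower mean in Naa10-KO fat, a median difference of 0.04 and 7 genes above WT without overlap (14.9%). The small subunit had 19 higher and 10 lower, a median of 0.09 and 7 genes above without overlap (24.1%). Each had 2 genes below WT without overlap (4.26% and 6.90%). Over all genes, 10.0% lay above and 8.14% below without overlap, and over genes at or over the median signal 13.0% and 9.76%. The median of the large subunit minus that of the small was -0.05, and with Mrps30 and Mrps18a counted in the large subunit and Mrps36 in neither it was -0.004. These 2 medians were then 0.04 over 49 genes and 0.05 over 26 genes. Above WT without overlap lay 9 of these 49 (18.4%) and 5 of these 26 (19.2%).

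Averaged over its genes, the large subunit had a mean log2 signal of 11.07, 10.97 and 11.03 on the Naa10-KO arrays and 11.04, 10.98 and 10.90 on the WT arrays. The small subunit had 10.95, 10.84 and 10.85 on the Naa10-KO arrays and 10.86, 10.81 and 10.79 on the WT arrays. The groups overlapped for both, and replicate 1 was the highest array of either genotype. Large minus small was 0.14 ± 0.03 in Naa10-KO fat and 0.15 ± 0.04 in WT fat (SD, n = 3 each), a shift within the spread between mice.

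**Figure D3:**
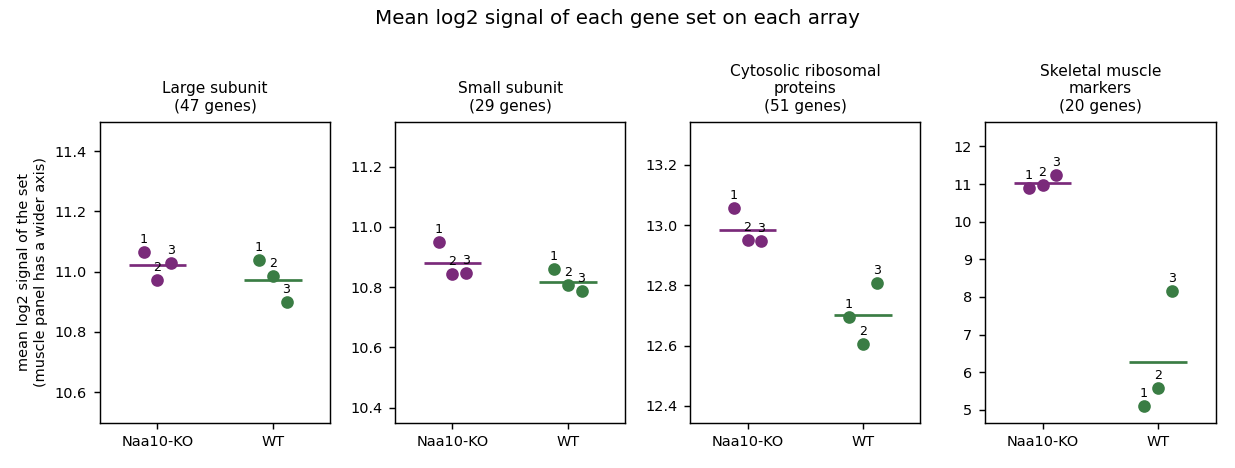
Each point is the mean log2 signal of a gene set on 1 array, labelled with its replicate number, with Naa10-KO left of WT and a line at the group mean. The large and small subunit means overlap between genotypes, while the cytosolic ribosomal proteins and the muscle markers, whose panel has a wider axis, are higher on all 3 Naa10-KO arrays.

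Proteins with a counterpart in bacterial ribosomes and those without had medians close to each other. This grouping was made from general knowledge after the values were seen. The 46 with a counterpart had a median difference of 0.04, 26 of them with a higher mean in Naa10-KO fat, 10 above and 3 below WT without overlap. The 29 without one had a median of 0.05, 19 with a higher mean, 4 above and 1 below. Without overlap, 10.0% of all genes lay above WT and 8.14% below. Among genes at or over the median signal the shares were 13.0% and 9.76%.

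The replicates of these genes lay close together. The median pooled SD of a member was 0.13 log2 units, against 0.22 over genes at or over the median signal. The members also had a higher mean signal than those genes, 10.97 against 9.31 in Naa10-KO fat. The closeness was not particular to them. The median SE of a difference was 0.15 for the members and for cytosolic ribosomal proteins, 0.14 for complex I subunits and 0.20 over genes at or over the median signal. Of the 76 members, 66 had a pooled SD under 0.25. Mrpl33 was the exception, singled out after its values were seen, with log2 signals of 11.81, 11.80 and 12.92 in Naa10-KO fat and 12.86, 12.75 and 11.21 in WT fat. Naa10-KO replicate 3 and WT replicates 1 and 2 were high and the other arrays low, so the groups overlapped fully, and the 95% interval of its difference ran from -1.54 to 1.35. Mrpl37 had the next largest pooled SD, 0.44, against 0.80 for Mrpl33, with 8.16, 8.89 and 8.40 in Naa10-KO fat and 8.65, 8.31 and 9.28 in WT fat, a difference of -0.26.

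Where a gene had several probe sets, they often gave other sizes. The members had 156 probe sets, and 42 genes had more than 1. Of the 80 that were not chosen, 49 had a mean at or over the median signal, and 40 of these had the sign of the chosen one. Mrpl3 had 3 others, with differences of 0.13, of 0.56 (mean 7.50 in Naa10-KO fat and 6.95 in WT fat, without overlap) and of -1.43 at a low signal. Averaging all its probe sets turned its difference to -0.05. Mrpl47 had 2 others, of 0.91 without overlap and of -1.25 at low signals. Mrpl13 had -0.09, 0.15 and, at a low signal, -0.48 beside -0.36 for its chosen probe set. These differed from the chosen value in size, and that of 0.15 had the opposite sign. Mrps6 had 1 other, of -0.26 without overlap, and Mrpl9 had 0.32 and 0.28 beside 0.37.

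**Figure D4:**
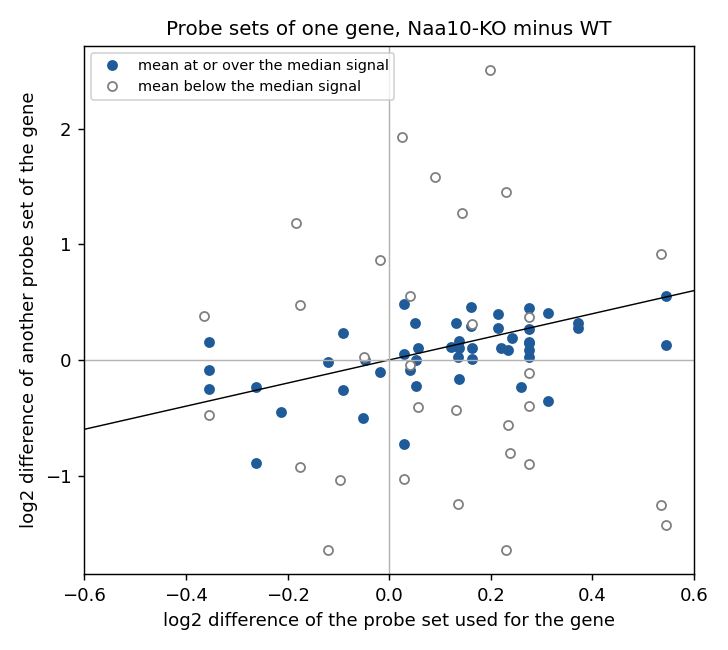
Each point is a probe set that was not chosen for its gene, with its own log2 difference (Naa10-KO minus WT) on the vertical axis and that of the chosen probe set on the horizontal axis. The line marks equal values, filled points have a mean at or over the median signal (49, of which 40 share the sign) and open points lie below it (31).

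The other genes of mitochondrial translation gave 0 calls in every list, in limma's fit, and Dap3, Chchd1, Ptcd3 and Gadd45gip1, ribosomal proteins under other names, had differences of -0.35, 0.25, -0.21 and -0.0039. These lists were written with earlier results of these data known. Dap3 was below WT on every Naa10-KO array. Of 28 genes that assemble the ribosome or modify its RNA, 20 had a higher mean, and the median was 0.14. Among the 28, 9 lay above WT without overlap (32.1%) and 5 had an unadjusted p under 0.05 (17.9%). Over all genes these shares were 10.0% and 9.20%, and over genes at or over the median signal 13.0% and 9.56%. The lowest difference in this list was -1.19. Ddx28, an RNA helicase of large subunit assembly, had the highest, 0.90 (adjusted p 0.279 in limma's fit), followed by Rpusd4, a pseudouridine synthase, at 0.53 and Mterf3 at 0.48. Of 15 translation factors, 11 had a higher mean and 0 had an unadjusted p under 0.05, with a median of 0.15, among them 2810006K23Rik at 1.05, Tufm, the elongation factor that delivers aminoacyl-tRNA, at 0.26 and Mtif2, the initiation factor, at -0.37. The signal of 2810006K23Rik was below the median of all values on every array, and its adjusted p was 0.601 in limma's fit. Of 21 aminoacyl-tRNA synthetases, 13 had a higher mean and 2 an unadjusted p under 0.05, and the median was 0.07. Cars2, Nars2 and Yars2, which charge the tRNAs of cysteine, asparagine and tyrosine, had 0.57, 0.50 and 0.48.

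Of 13 genes that transcribe mitochondrial DNA or process its RNA, 11 had a higher mean and 1 an unadjusted p under 0.05, with a median of 0.15. Among these, Trmt10c, a subunit of mitochondrial RNase P, had 0.57, Mterf1a, of the family of mitochondrial termination factors, had 0.52 and Tfb2m, a transcription factor of mitochondrial DNA, had 0.30. Of 8 regulators of mitochondrial genes, 6 had a higher mean, with a median of 0.20. Myc had the highest, 0.62, and was above WT on every Naa10-KO array with 7.82 ± 0.32 in Naa10-KO fat and 7.20 ± 0.04 in WT fat (SD, n = 3 each). Gabpa had 0.35 and Yy1 0.23, both without a call in limma's fit, while Nrf1 had -0.21.

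Among the cytosolic ribosomal proteins, which form the ribosomes outside the mitochondrion, more genes had a higher mean in Naa10-KO fat. Of 51 cytosolic ribosomal protein genes, 47 had a higher mean, 19 lay above WT without overlap (37.3%) and the median difference was 0.22. The array means were 13.06, 12.95 and 12.95 in Naa10-KO fat and 12.69, 12.60 and 12.81 in WT fat. Only Rpl3l, the muscle paralog of Rpl3, was called among them in limma's fit, and it is included in these means. The differences of the cytosolic set ran from -1.02 to 3.51, with 3 genes beyond 1 log2 unit. Of 36 complex I subunit genes, 24 had a higher mean and 11 lay above WT without overlap (30.6%), with a median of 0.09 beside 0.05 for the mitoribosomal genes. Their array means overlapped, at 12.91, 12.95 and 13.03 in Naa10-KO fat and 13.03, 12.98 and 12.97 in WT fat. The complex I differences ran from -2.10 to 0.39, with 2 genes beyond 1 log2 unit. Without overlap, 10.0% of all genes lay above WT, and 13.0% of genes at or over the median signal. No test of the difference between these sets was run.

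**Figure D5:**
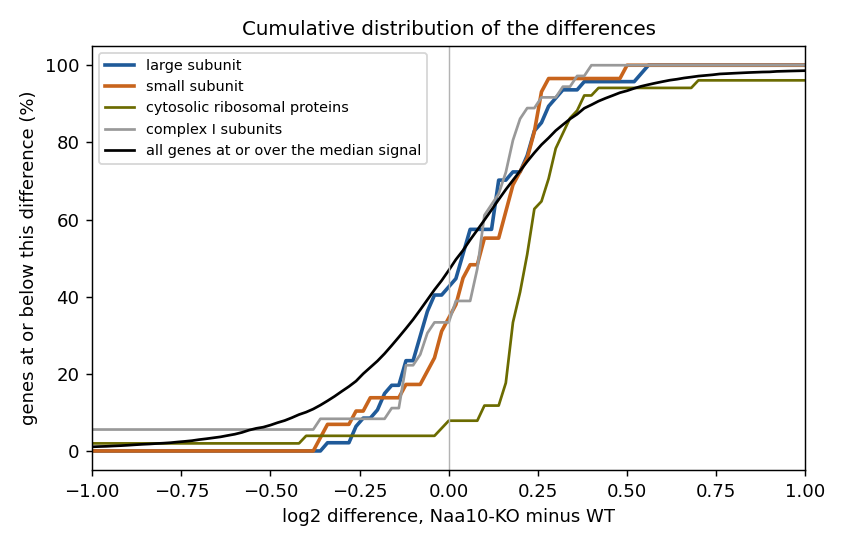
Each line gives the percent of a gene set at or below a given log2 difference (Naa10-KO minus WT), drawn between -1 and 1, for the large and small subunits, cytosolic ribosomal proteins, complex I subunits and all genes at or over the median signal. The lines of both mitoribosomal subunits cross the middle close to 0 (medians 0.04 and 0.09), and that of the cytosolic ribosomal proteins lies to the right (median 0.22).

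Motifs bound by factors that act on mitochondrial genes were counted in the promoters. A window running from 250 bases before the start to 50 after it was available for 67 of the 76 members, leaving Mrps34, Mrpl54, Mrpl38, Mrps28, Mrpl19, Mrpl13, Mrpl4, Mrps35 and Mrpl15 unmatched. Letters were searched on both strands and were chosen with the counts in view. CCGGAAG (GABPA) stood in 25 of 67 (37.3%). The backgrounds were 9.93% of all promoters and 19.9% of those of coding genes at or over the median signal. AAGATGGC (YY1) stood in 12 (17.9%), against 3.19% and 5.28%, and GCGC followed by any base and TGCGC (NRF1) in 12 (17.9%), against 5.19% and 11.8%. TCAAGGTCA (ERR) stood in 0, against 0.466% and 0.324%, and TATAAA in 5 (7.46%), against 15.7% and 9.22%. The 41 members with any of the first 3 had a median difference of 0.09 and the 26 without had 0.03. The shares describe these windows only.

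Some members share a promoter region with a gene on the opposite strand. Of the 67, 23 (34.3%) had a coding neighbour starting head to head within 1000 bases, against 13.2% of coding genes at or over the median signal. Among the 23 members, 12 had a difference of the same sign as their neighbour. Some neighbours had means below the median of all values (5.86), where a sign says little. Among them were Ska3 (2.61 in Naa10-KO fat and 2.19 in WT fat) and Eme1 (2.70 and 3.12). Mrpl46 and Mrps11 are each other's neighbour and count as 2 of the 23. Mrpl47 starts 308 bases from Ndufb5, a complex I subunit gene, which had log2 signals of 13.70, 13.55 and 13.88 in Naa10-KO fat and 13.41, 13.45 and 13.36 in WT fat. These did not overlap, and its difference was 0.30 (SE 0.15, adjusted p 0.592 in limma's fit), so both genes of this pair were higher in mean in Naa10-KO fat. Mrpl46 and Mrps11 start 42 bases apart and had differences of 0.04 and -0.36. The pair of Mrpl47 and Ndufb5 and that of Mrpl46 and Mrps11 were chosen after their values were seen.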

How the data were processed

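RNA of inguinal white fat from 6 mice (3 µg each) was hybridised to Affymetrix Mouse Genome 430 2.0 arrays. The deposited values are on a log2 scale, made with software not given in the sources used here, and in linear units each array has a 2% trimmed mean of 500. The authors' values were used as deposited. A 2016 platform annotation named 1 gene for 34945 of 45101 probe sets, and 34741 of these matched RefSeq GRCm38.p6. limma 3.58.1 in R 4.3.3 fitted genotype over 18193 genes, with Benjamini-Hochberg adjustment at 0.05. The code was tested on simulated data.

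The members, lists, tests and alternatives were chosen with earlier results of these data known. Members named were, in each subunit, up to 6 with the smallest unadjusted p and the 2 largest differences each way, the 2 highest and 2 lowest means, and 8 by name. From each other list of mitochondrial genes, and from the muscle and brown fat markers, up to 3 genes of smallest unadjusted p were named, and the remaining marker lists are given by counts. Further genes were named for their role or after their values were seen. Samples were grouped by the genotype in their labels. Alternatives were trend and robust fits, array weights, quantile and median scaling, a filter and a floor on low values, other probe set rules, a replicate block and leaving out each array. Deviations of same-numbered mice correlated at -0.0067, -0.0057 and -0.03, so the numbers were not taken as pairs.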

Additional observations from a re-analysis of the deposited data

How the results depend on the processing

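In 16 other fits 0 members were called, and 407 of 430 values of the 27 genes named by rule kept their direction, 15 genes in every fit. Part of this agreement was fixed in advance. The trend and robust fit, the replicate block, the filter and the floor leave each member's difference as in the main fit. Median centring moves the differences of all members by the same amount. Leaving out probe sets whose names end in x_at or s_at can change or drop only the 11 members represented by such a probe set. The fit of each probe set on its own was read here at the chosen probe set, which also leaves the difference unchanged. Counting members above WT without overlap, 14 became 5 with median centring, and leaving out 1 array gave 14 to 25, where 14.3% to 17.1% of all genes lay above. Below WT, 4 members became 7 with each probe set on its own, a member counting if any of its probe sets (156 in all) lay below, as 8.31% of all probe sets did, and leaving out 1 array gave 5 to 15, where 11.3% to 14.6% of all genes did. With an unadjusted p under 0.05 as the threshold, the counts were 2 higher and 1 lower. The mean of all probe sets turned Mrpl11 to -0.24, Mrpl15 to -0.049, Mrpl3 to -0.049, Mrpl41 to 0.25, Mrps11 to 0.0084, Mrps14 to -0.082 and Mrps5 to -0.24, because other probe sets of those genes enter the mean. Mrps27 was -0.0053 with array weights and -0.012 with quantile normalization. Leaving out 1 array gave -0.48 to 0.0039 for Mrpl37, -0.52 to 0.0072 for Mrpl4, -0.095 to 0.087 for Mrpl41, -0.088 to 0.025 for Mrps12, -0.024 to 0.15 for Mrps14, -0.028 to 0.15 for Mrps18b, -0.086 to 0.057 for Mrps27 and -0.093 to 0.14 for Mrps5. The cause of these other changes was not tested.

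With the replicate number as a block, 0 members and 0 of all genes were called, against 21 of all genes without it, and the lowest adjusted p of a member was 0.689 in limma's fit. Each replicate number holds an array of each genotype, so the block could not change any difference. The median differences therefore remained 0.05 for the members, 0.04 for the large subunit and 0.09 for the small. The 3 arrays a genotype and probe sets of low signal limit what can be seen.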
